A study of Mus musculus with 24 samples.

Results

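The 34 genes described here are expressed in brain mainly by microglia, the resident macrophages of the central nervous system, or are shared by microglia with other myeloid cells. They were taken by symbol from 18193 named genes on a mouse expression array, with 1 probe set for each gene, the one with the highest mean over the 24 arrays. All 34 had a probe set, and 29 passed a filter on low values, which asked for a log2 value over 4 on at least 4 arrays. The list was drawn up with earlier results of these data known.

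Microglia survey the tissue with fine processes and take up debris, dying cells and synaptic material. They depend on the growth factor receptor CSF1R, sense ATP and ADP released by other cells through purinergic receptors, and receive signals from neurons through the fractalkine receptor CX3CR1. Several activating receptors on their surface, TREM2 and Fc receptors among them, have no signalling part of their own and work through the small adaptors TYROBP and FCER1G, while C1Q, the first component of the classical complement cascade, is made in the brain largely by these cells.

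The arrays measured the suprachiasmatic nucleus (SCN), a pair of small hypothalamic cell groups that keep circadian time and receive light input from the retina. C57BL/6 mice, 8 weeks old when obtained, lived in constant dim red light for at least 7 days, then received a phase-advancing light pulse of 30 min or the sham treatment. Their brains were taken 3.5 h afterwards. Ventral, central and dorsal SCN were cut by laser from haematoxylin-stained coronal sections 25 µm thick, and the RNA was amplified in 2 batches. This gave 6 groups of 4 arrays (pulsed ventral, pulsed central, pulsed dorsal, sham ventral, sham central and sham dorsal SCN), each with 2 arrays in batch A and 2 in batch B. All groups shared the strain and the lighting before treatment. Which arrays share an animal, and whether tissue was pooled, is not in the labels, so the p-values measure the spread between these samples.

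Array medians over all probe sets lay between 3.52 and 3.62 log2 units in batch A and between 4.81 and 5.07 in batch B, so levels are given within a batch and every comparison carried batch as a term. The filter value of 4 lay above the medians of batch A and below those of batch B. On the batch A arrays 9 to 13 of the 34 genes exceeded log2 4, against 24 to 30 on the batch B arrays, while 13 to 19 exceeded the array's own median in batch A and 16 to 25 in batch B. Array 4 of pulsed dorsal SCN stood apart, with a difference between the 3′ and 5′ Gapdh control probe sets of 5.41 log2 units, against 0.887 to 1.07 on the other batch B arrays, and a median correlation with its batch of 0.913. Array 2 of pulsed central SCN had the next lowest such correlation, 0.955, and values without these 2 arrays are given where they move a result. On the batch A arrays the Gapdh difference was 2.02 to 3.28 log2 units, above that of every batch B array but pulsed dorsal 4. Vip and Avp set dorsal SCN apart from the other regions. Vip was higher by 3.43 and 2.88 log2 units in ventral and in central SCN than in dorsal SCN, and Avp differed by -1.43 and -1.87 in the same comparisons. Between ventral and central SCN neither passed. Of 7 tested SCN neuron markers, only Grp (-0.89) and Lhx1 (-0.63) did, both lower in ventral SCN.

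The label of the list was checked against its defining markers. On the probe sets used, Ctss, C1qb, Csf1r, Tyrobp, Fcer1g, Cd53, Laptm5 and Ly86 exceeded log2 4 on all 24 arrays. Aif1 (the calcium-binding protein IBA1), Cx3cr1, P2ry12 and Tmem119 did not. They exceeded 4 on 0 of 12 batch A arrays, and on 11 batch B arrays for Aif1 and 12 for each of the other 3. In batch B they exceeded the array's own median on 5 (Aif1), 12 (Cx3cr1), 10 (P2ry12) and 7 (Tmem119) of 12 arrays. Batch A values of these 4 genes lay between 2.69 and 3.84, so these markers, widely used to name the cells, were over the filter value in batch B only. The 5 genes under the filter were Itgam and Itgb2, the chains of the integrin CD11b/CD18, Cd37, a tetraspanin, Spi1, which encodes the myeloid transcription factor PU.1, and Cd14, a co-receptor for bacterial lipopolysaccharide. Their highest single values were 3.39 for Itgam, 4.57 for Itgb2, 3.61 for Cd37, 4.22 for Spi1 and 3.73 for Cd14, and no comparison was made for them.

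Averaged over the 29 tested microglial genes, the level was lowest in central SCN. In central against dorsal SCN, 7 of the 29 tested genes were lower and 0 were higher at an adjusted p under 0.05 (limma, Benjamini-Hochberg over 13494 genes), where 5.14% of all tested genes were lower. The 7 were Fcer1g and Tyrobp, the signalling adaptors; Laptm5, a lysosomal membrane protein; Ctss, the lysosomal protease cathepsin S; Ly86, the MD-1 partner of the toll-like receptor homologue RP105; C1qc, a chain of C1Q; and Csf1r. Their fitted differences lay between -1.13 and -0.56 log2 units, which is 1.47-fold to 2.19-fold lower in central SCN. Over the 29 genes the difference was below 0 for 27 and above 0 for 2, where 41.3% of all tested genes were above 0, with a median of -0.32 and a range of -1.13 to 0.14, against a median of -0.05 over all tested genes. An unadjusted p under 0.05 was reached by 14 genes, all lower in central SCN, and by 19.3% of all tested genes in either direction. The genes also moved together between replicate arrays, most unevenly in sham batch B. There 24 were higher and 5 lower on dorsal 3 than on dorsal 4 (median 0.36, against 0.10 over all tested genes). Central 3 against central 4 gave the same counts (median 0.30, against 0.01). Counts of genes in 1 direction are therefore not counts of independent values. Each comparison of regions averaged the pulsed and sham arrays. With sham arrays only, the central minus dorsal differences of the 7 genes lay between -0.82 (Tyrobp) and -0.37 (Ly86). Of the 7, only Tyrobp then passed (limma, adjusted p 0.0267). With pulsed arrays only, they lay between -1.61 (Laptm5) and -0.56 (Tyrobp), and Fcer1g, Laptm5 and Ly86 passed.

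Averaged over the 29 genes, the log2 value was 4.56 ± 0.152 in ventral, 4.31 ± 0.099 in central and 4.61 ± 0.097 in dorsal SCN in batch A (SD, n = 4 arrays each). In batch B it was 5.84 ± 0.106 in ventral, 5.53 ± 0.189 in central and 6.03 ± 0.221 in dorsal SCN. The central mean was thus the lowest of the 3 in both batches. With batch taken into account, 24 of the 29 genes had their lowest mean in central SCN, as had 44.6% of all tested genes. The other 5 were Cd68, Hpgds, Olfml3, Ptprc and Tmem119. Dorsal SCN held the highest mean of 21 genes, against 40.2% of all tested genes. In bulk tissue, fewer cells of a type and less RNA per cell cannot be told apart.

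**Figure D1:**
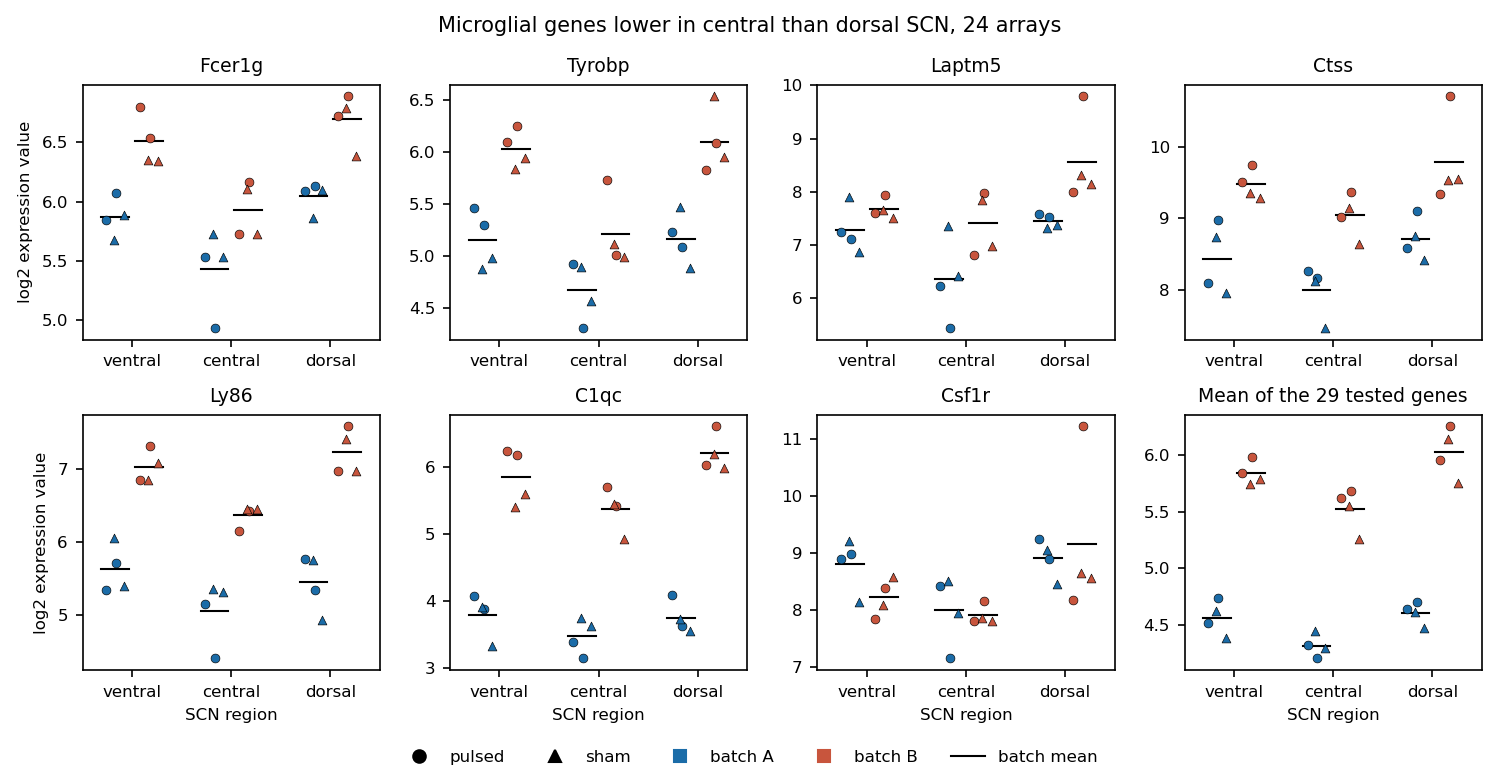
Log2 expression values (vertical axes) of the 7 genes that were lower in central than in dorsal SCN, and the mean over the 29 tested genes, by SCN region (horizontal axes). Each point is 1 of 24 arrays (circles pulsed, triangles sham, blue batch A, red batch B) and lines are means of the 4 arrays of a region and batch; the mean of the 29 genes is lowest in central SCN in both batches, at 4.31 and 5.53.

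The adaptors gave the firmest differences. Fcer1g had 5.53, 4.93, 5.73 and 5.53 on the central arrays of batch A (pulsed 1, pulsed 2, sham 1 and sham 2), against 6.09, 6.13, 5.86 and 6.10 on the dorsal arrays in the same order. In batch B it had 5.73, 6.17, 6.11 and 5.73 in central SCN (pulsed 3, pulsed 4, sham 3 and sham 4), against 6.73, 6.89, 6.79 and 6.39 in dorsal SCN. Every central array lay below every dorsal array in both batches, which among the 7 genes held for Fcer1g only. The difference was -0.69 ± 0.114 log2 units (SE, adjusted p 0.000359), 1.61-fold lower in central SCN. The 7 genes were picked by p from these same values, so arrays lying apart are not further support. The share of all tested genes with arrays apart in this way was not counted, here or in later paragraphs.

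Tyrobp, which carries the signal of TREM2, had a lowest, median and highest value of 4.31, 4.73 and 4.92 in central SCN and 4.88, 5.16 and 5.47 in dorsal SCN in batch A. In batch B these were 4.99, 5.06 and 5.73 in central SCN and 5.83, 6.01 and 6.53 in dorsal SCN. The regions were apart in batch B and overlapped in batch A. Tyrobp differed by -0.69 ± 0.139 (SE, adjusted p 0.00239). Trem2 itself, the lipid-sensing receptor, differed by -0.19 and did not pass (adjusted p 0.620), and Fcgr3, the low-affinity IgG receptor that uses FCER1G, differed by -0.41 (adjusted p 0.140).

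The complement genes pointed the same way, with 1 of 3 passing. C1qc had lowest, median and highest values of 4.92, 5.44 and 5.70 in central SCN of batch B, against 5.99, 6.12 and 6.61 in dorsal SCN. In batch A, where most of its values lay under 4, it had 3.14, 3.50 and 3.74 in central SCN and 3.56, 3.68 and 4.09 in dorsal SCN. The groups were apart in batch B and overlapped in batch A, and the fitted difference was -0.56 ± 0.146 (adjusted p 0.0199). C1qc passed in all but 2 of the 24 fits that left out 1 array; its adjusted p was 0.0527 without sham central 4 and 0.0555 without sham dorsal 3, and 0.0616 (difference -0.43) without the 2 arrays that stood apart. C1qa differed by -0.39 (adjusted p 0.192). C1qb differed by -0.90 ± 0.305 (adjusted p 0.0800), with 11.20 on pulsed dorsal 4 and no more than 8.47 on the other dorsal arrays of batch B. Without that array C1qb differed by -0.53 and passed (adjusted p 0.0230), and its other 2 probe sets gave -0.98 and -0.57.

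Csf1r, the receptor on which microglial survival depends, had lowest, median and highest values of 7.15, 8.18 and 8.50 in central SCN and 8.46, 8.97 and 9.24 in dorsal SCN in batch A. In batch B it had 7.80, 7.83 and 8.16 in central SCN and 8.17, 8.60 and 11.22 in dorsal SCN. The top value again was pulsed dorsal 4, and the lowest of all was pulsed central 2. Csf1r differed by -1.07 ± 0.312 (adjusted p 0.0375). Its size rested on those arrays: without pulsed dorsal 4 it was -0.74 (adjusted p 0.0232), and without both arrays -0.56 (adjusted p 0.0403). The call was lost in 8 of the 24 fits that left out 1 array, with adjusted p values of 0.0858 without pulsed central 2, 0.0637 without pulsed central 3, 0.0665 without sham central 2, 0.0689 without sham central 3, 0.0767 without sham central 4, 0.0770 without sham dorsal 1, 0.0708 without sham dorsal 3 and 0.0565 without sham dorsal 4. Csf1r also missed the threshold with arrays centred on their medians (0.05005), after quantile normalization (0.0570) and with no filter on low values (0.0516). Its other 2 probe sets differed by -0.97 and -0.31.

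Of the lysosomal genes, Laptm5 and Ctss were lower in central SCN and Cd68 was not. Ctss had lowest, median and highest values of 7.46, 8.14 and 8.26 in central SCN of batch A, all below its 8.41, 8.67 and 9.10 in dorsal SCN. In batch B it had 8.64, 9.07 and 9.37 in central SCN and 9.34, 9.54 and 10.71 in dorsal SCN, which overlapped by a narrow margin. The difference was -0.72 ± 0.177 (adjusted p 0.0119). Laptm5 had 5.43, 6.31 and 7.34 in central SCN and 7.31, 7.44 and 7.58 in dorsal SCN in batch A. In batch B it had 6.81, 7.41 and 7.97 in central SCN and 7.99, 8.23 and 9.80 in dorsal SCN. Its difference of -1.13 ± 0.260 (adjusted p 0.00759) came from 1 of 5 probe sets. Without the 2 arrays that stood apart, which hold the highest dorsal and the lowest central Laptm5 value, it was -0.77 (adjusted p 0.0201). The other 4 Laptm5 probe sets differed by -0.10, -0.02, -0.02 and -0.15, and with the mean of all 5 the difference was -0.29 and did not pass (adjusted p 0.128). Cd68, a lysosomal glycoprotein of phagocytes, differed by 0.14 (adjusted p 0.750).

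Ly86 had lowest, median and highest values of 4.40, 5.23 and 5.35 in central SCN and 4.93, 5.55 and 5.76 in dorsal SCN in batch A. In batch B these were 6.15, 6.44 and 6.46 in central SCN and 6.98, 7.19 and 7.59 in dorsal SCN. The regions overlapped in batch A and were apart in batch B. Ly86 differed by -0.63 ± 0.161 (adjusted p 0.0165), and by -0.48 (adjusted p 0.0596) without the 2 arrays that stood apart.

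Of the receptors and surface proteins often used as microglial markers, none of the following passed. Cx3cr1, P2ry12, P2ry13, Tmem119, Gpr34, Selplg and Siglech were over log2 4 on 0 of 12 batch A arrays. Cx3cr1 differed by -0.23 (adjusted p 0.319), P2ry12, the ADP receptor that steers process movement, by -0.13 (0.769), P2ry13, its relative, by -0.28 (0.320), and Tmem119 by -0.23 (0.416). Gpr34, a lysophosphatidylserine receptor, differed by -0.26 (0.260), Selplg, the P-selectin ligand, by -0.33 (0.147), Siglech, a sialic acid-binding lectin, by -0.15 (0.672) and Fcrls, an Fc receptor-like protein, by -0.09 (0.764). Aif1 differed by -0.54 (0.0581), with 3.91 to 4.48 in central SCN of batch B and 4.55 to 5.46 in dorsal SCN. Those batch B ranges did not overlap, whereas in batch A, below the filter value, the Aif1 difference was -0.10.

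Among the general myeloid and leukocyte genes, Mpeg1, a pore-forming protein of macrophages, differed by -0.75 (adjusted p 0.0868) and Lyz2, lysozyme, by -0.33 (0.0638). Ptprc, the pan-leukocyte phosphatase CD45, differed by -0.21 (0.614) and Cd53, a tetraspanin, by -0.32 (0.396). Irf8, a transcription factor needed by microglia, differed by -0.07 (0.822), Cyth4, an exchange factor for small GTPases, by -0.13 (0.618), Olfml3, a secreted matrix protein, by -0.27 (0.434), and Hpgds, prostaglandin D synthase of haematopoietic cells, by 0.12 (0.818). Without pulsed dorsal 4, Cd53 differed by -0.51 and passed (0.0301), as did Lyz2 at -0.34 (0.0402).

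The sign of the central against dorsal difference was the same in both batches for 28 of the 29 genes, as it was for 61.5% of all tested genes. The median over the 29 genes was -0.22 in batch A and -0.41 in batch B, but in either batch on its own, with 4 arrays of each region, none of the 29 passed, and the smallest adjusted p among the 7 was 0.113 in batch A (Laptm5) and 0.0688 in batch B (C1qc and Tyrobp). Replicate numbers were taken to pair the arrays of different regions, although arrays that differed in both treatment and region met the same rule. With the treatment and replicate number as a block in place of batch, 12 genes were lower in central SCN. Over all tested genes the calls in either direction were 1591 in that fit and 959 in the reported one. The 12 genes were the same 7 with C1qb (adjusted p 0.0233), Aif1 (0.0305), Mpeg1 (0.0477), Selplg (0.0485) and Lyz2 (0.0486).

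**Figure D2:**
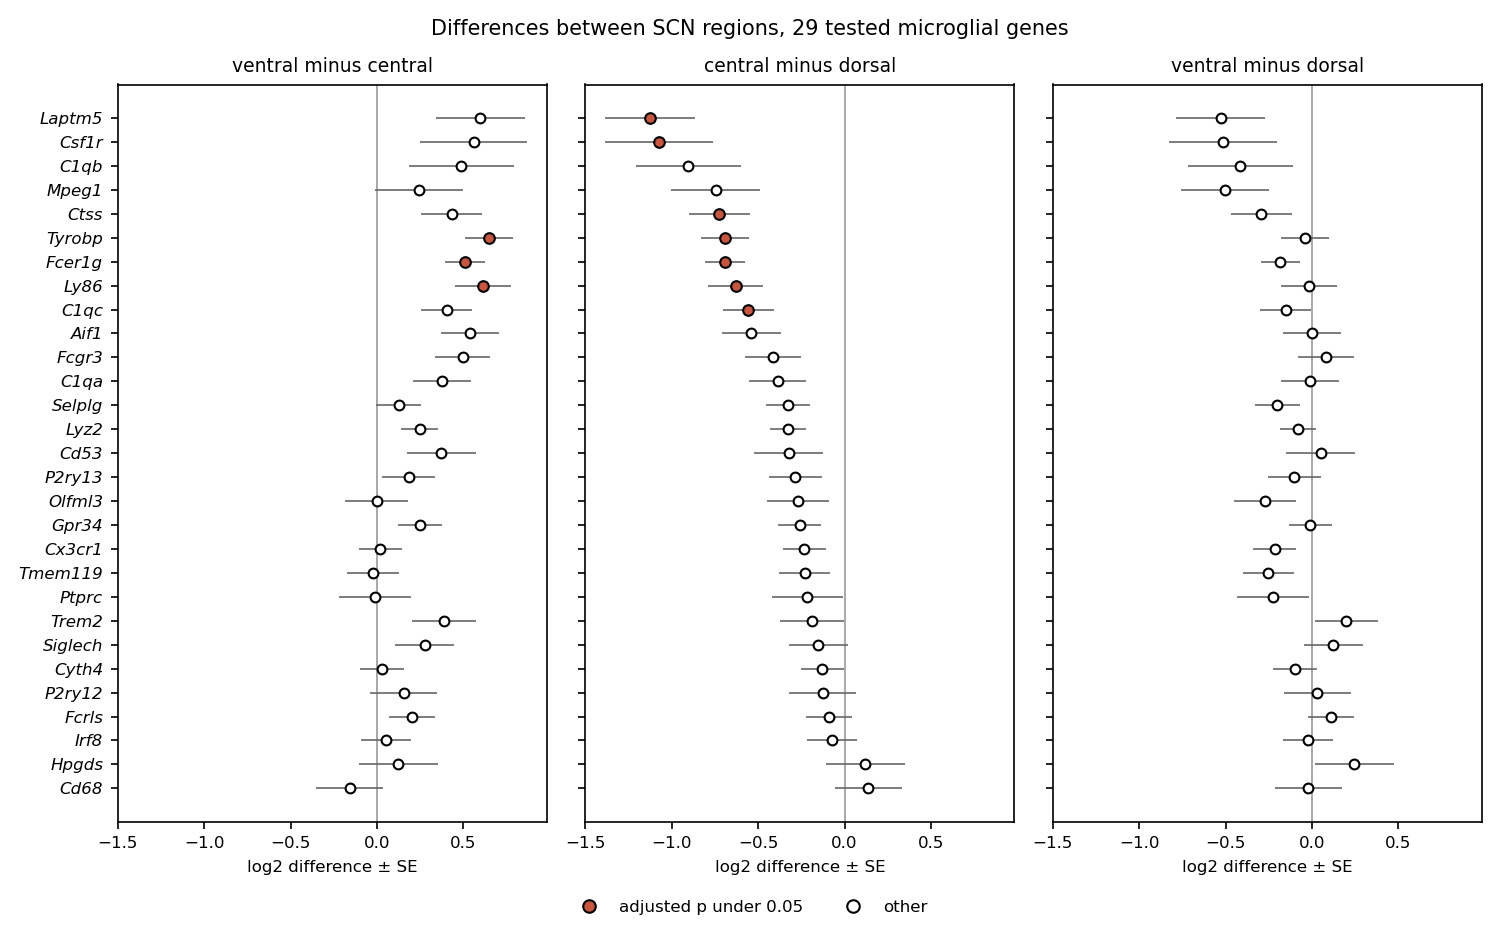
Fitted log2 differences (horizontal axes, points, with SE as lines) for the 29 tested genes, in rows ordered by the central minus dorsal difference; filled points passed an adjusted p of 0.05. In the middle panel 27 genes lie below 0 and 7 are filled; in the left panel 25 lie above 0 and 3 are filled; in the right panel none is filled.

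Ventral against central SCN was the second comparison with the low region, and it shares the central arrays with the first. Of the 29 genes 3 were higher in ventral SCN and 0 were lower, where 4.36% of all tested genes were higher. The 3, Tyrobp, Fcer1g and Ly86, had also passed against dorsal SCN. Over the 29 genes 25 differences were above 0, as were 63.5% over all tested genes, and the median was 0.25 (0.05 over all tested genes). An unadjusted p under 0.05 was reached by 11, all higher in ventral SCN, and by 12.9% of all tested genes in either direction.

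Tyrobp had lowest, median and highest values of 4.87, 5.14 and 5.46 in ventral SCN and 4.31, 4.73 and 4.92 in central SCN in batch A. In batch B it had 5.83, 6.01 and 6.25 in ventral SCN and 4.99, 5.06 and 5.73 in central SCN. Its difference was 0.65 ± 0.139 (SE, adjusted p 0.00503), 1.57-fold. Fcer1g had 5.68, 5.87 and 6.07 in ventral SCN and 4.93, 5.53 and 5.73 in central SCN in batch A, and in batch B 6.34, 6.45 and 6.80 in ventral SCN and 5.73, 5.92 and 6.17 in central SCN. It differed by 0.51 ± 0.114 (adjusted p 0.00755), 1.42-fold. All 3 genes were apart in batch B and overlapped in batch A.

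Ly86 had 6.85, 6.97 and 7.32 in ventral SCN and 6.15, 6.44 and 6.46 in central SCN in batch B, and 5.34, 5.55 and 6.06 in ventral SCN and 4.40, 5.23 and 5.35 in central SCN in batch A. It differed by 0.61 ± 0.161 (adjusted p 0.0248). This call was lost in 7 of the 24 fits that left out 1 array, with adjusted p values for Ly86 of 0.0508 without pulsed ventral 2, 0.0664 without pulsed ventral 4, 0.0600 without pulsed central 2, 0.0532 without pulsed central 3, 0.0708 without sham ventral 1, 0.0594 without sham central 3 and 0.0608 without sham central 4. It also missed the threshold after quantile normalization (0.0643).

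Aif1 at 0.54 (adjusted p 0.0747) and Fcgr3 at 0.50 (0.0878) came next. With the treatment and replicate number as a block, 6 genes were higher in ventral SCN (970 of all tested genes called in either direction, against 702 in the reported fit), the same 3 with Aif1 (0.0429), Fcgr3 (0.0492) and Ctss (0.0346). Leaving out pulsed dorsal 4 alone, which is in neither region but enters the shared spread, also gave 6, with C1qb (0.0307), Aif1 (0.0379) and Fcgr3 (0.0477) added. Leaving out both arrays that stood apart gave 5.

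Between ventral and dorsal SCN, 0 of the 29 genes passed in either direction by limma, where 4.61% of all tested genes did, and 0 had an unadjusted p under 0.05. The differences had a median of -0.08 and ran from -0.53 for Laptm5 to 0.24 for Hpgds, and the smallest adjusted p was 0.345. No other fit run here called any of them. For the 3 genes called in both other comparisons, the ventral minus dorsal difference was -0.18 ± 0.114 for Fcer1g, -0.04 ± 0.139 for Tyrobp and -0.02 ± 0.161 for Ly86.

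Markers of other cell types differed in the same comparisons. Oligodendrocyte markers were lower in central than in dorsal SCN for 4 of 5 tested (median -1.44) and higher in ventral than in central SCN for 5 of 5 (median 2.64). On the arrays their mean log2 value ran from 8.11 to 8.74 in ventral, 5.43 to 6.47 in central and 6.97 to 7.42 in dorsal SCN in batch A, and from 9.46 to 9.85 in ventral, 7.15 to 7.59 in central and 8.52 to 8.96 in dorsal SCN in batch B. Endothelial markers were lower in central than in dorsal SCN for 2 of 4 (Slco1a4, log2 difference -1.48, and Cldn5, -1.01), and mural markers for 2 of 5 (Vtn, -1.10, and Rgs5, -0.65); the same 4 genes were higher in ventral than in central SCN (Slco1a4 1.21, Cldn5 1.10, Vtn 1.09 and Rgs5 0.80). The endothelial mean ran from 4.38 to 4.97 in ventral, 3.67 to 4.29 in central and 4.19 to 5.10 in dorsal SCN in batch A, and from 6.01 to 6.55 in ventral, 5.23 to 5.75 in central and 5.54 to 6.48 in dorsal SCN in batch B. Among 6 astrocyte markers none passed between central and dorsal SCN, and 4 were higher in ventral than in central SCN. Oligodendrocyte precursor markers were lower in central than in dorsal SCN for 2 of 3 (Pdgfra, -0.65, and Gpr17, -0.89), neuron markers for 2 of 6 (Syt1, -1.86, and Nefl, -1.67) and ependymal markers for 1 of 2 (Ccdc153, -1.97), while of the SCN neuron markers Vip, Grp (2.47) and Lhx1 (0.98) were higher and Avp was lower. The part of all these markers in the microglial differences was not tested. Markers of border macrophages (Mrc1, Cd163, Lyve1, Pf4 and F13a1), of neutrophils and monocytes, of lymphocytes and of red blood cells had array means between 2.90 and 4.04, and 0 of the 5 tested genes of these lists passed in any comparison.

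Promoters of some genes that were lower together in central SCN are shown. The reason is that PU.1, the factor that Spi1 encodes, is known to bind purine-rich sites near myeloid genes. RefSeq windows on GRCm38.p6, from 250 bases before the annotated start to 50 after it, were counted for 25 of the 34 genes. Those of Tyrobp and Csf1r, which were also called, are not shown, so matches in the rest do not describe all 7. Windows of 5 of the 7 called genes are shown. Each is given in the direction of the gene, with every match to GAGGAA on either strand in capitals, extended where the longer GAGGAAGT matched; each GAGGAAGT contains a GAGGAA.
Fcer1g (minus strand, chr1:171234300-171234599): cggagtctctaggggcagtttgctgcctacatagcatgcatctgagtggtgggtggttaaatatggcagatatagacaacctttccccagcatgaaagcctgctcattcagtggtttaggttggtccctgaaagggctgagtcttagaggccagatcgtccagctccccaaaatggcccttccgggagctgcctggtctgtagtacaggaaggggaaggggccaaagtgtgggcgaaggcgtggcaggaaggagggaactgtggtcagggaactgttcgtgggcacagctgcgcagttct
Laptm5 (plus strand, chr4:130913066-130913365): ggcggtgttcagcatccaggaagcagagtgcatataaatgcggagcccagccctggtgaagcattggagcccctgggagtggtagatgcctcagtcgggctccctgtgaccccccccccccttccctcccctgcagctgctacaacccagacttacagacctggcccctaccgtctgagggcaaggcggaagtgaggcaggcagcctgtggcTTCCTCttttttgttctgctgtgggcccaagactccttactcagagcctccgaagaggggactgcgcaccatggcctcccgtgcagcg
Ctss (plus strand, chr3:95526536-95526835): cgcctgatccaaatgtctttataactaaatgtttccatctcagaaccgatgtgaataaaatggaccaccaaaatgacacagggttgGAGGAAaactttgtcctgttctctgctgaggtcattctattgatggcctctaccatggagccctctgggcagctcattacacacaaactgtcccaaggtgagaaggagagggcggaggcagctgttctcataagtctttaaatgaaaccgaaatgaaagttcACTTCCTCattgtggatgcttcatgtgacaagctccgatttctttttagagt
Ly86 (plus strand, chr13:37345095-37345394): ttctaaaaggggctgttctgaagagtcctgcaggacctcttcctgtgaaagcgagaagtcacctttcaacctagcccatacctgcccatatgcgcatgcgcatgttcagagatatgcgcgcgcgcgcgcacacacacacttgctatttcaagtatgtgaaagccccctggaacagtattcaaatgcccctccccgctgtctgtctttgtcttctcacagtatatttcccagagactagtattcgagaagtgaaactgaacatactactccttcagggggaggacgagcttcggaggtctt
C1qc (minus strand, chr4:136892865-136893164): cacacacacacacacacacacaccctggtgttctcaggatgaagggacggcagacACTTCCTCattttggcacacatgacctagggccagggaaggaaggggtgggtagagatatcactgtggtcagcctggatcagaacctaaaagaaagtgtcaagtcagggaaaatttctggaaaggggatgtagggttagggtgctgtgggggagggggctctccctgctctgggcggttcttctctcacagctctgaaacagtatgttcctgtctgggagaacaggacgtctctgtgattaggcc
GAGGAAGT lay in the Ctss window over the start itself, from position -2 to 5 with the first transcribed base as 0, and in the C1qc window from -195 to -188, in both on the strand opposite to the gene. Laptm5 held the shorter GAGGAA only, from -38 to -33, and the Fcer1g and Ly86 windows held no match. Over the list, the 25 genes have 28 windows. GAGGAAGT was in 6 of the 28 (C1qc, Cd37, Cd53, Ctss, Cyth4 and Hpgds), where 3.20% of 32851 windows of the same length hold it. GAGGAA was in 18 of the 28, where 28.3% of windows hold it. The composite element that ETS and IRF factors bind together was in 1 of the 28, that of Cd68, where 2.72% of windows hold it. A match is a description of the letters, and binding was not measured.

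No microglial gene passed the test for the light pulse in any region in the reported fit, and Cd68 passed under several alternatives given below with its values. Of the 29, 0 passed in ventral, 0 in central and 0 in dorsal SCN by limma, where 0.719%, 0.385% and 0.178% of all tested genes passed. At an unadjusted p under 0.05, 3 were higher and 0 lower in ventral SCN, 2 and 0 in central SCN, and 1 and 2 in dorsal SCN. Over all tested genes that p was reached by 6.56% in ventral, 8.06% in central and 10.1% in dorsal SCN in either direction. The median pulsed minus sham difference over the 29 genes was 0.13 in ventral, 0.02 in central and 0.15 in dorsal SCN, against -0.03, -0.08 and -0.03 over all tested genes. In dorsal SCN it was 0.057 without the 2 arrays that stood apart, and in central SCN it was -0.11 in batch A, 0.30 in batch B and 0.057 without those arrays. With the regions averaged first, 0 passed where 0.408% of all tested genes did, 3 were higher and 0 lower at an unadjusted p under 0.05 (9.52% of all tested genes in either direction), and the median was 0.10. That median was -0.0046 in batch A, 0.20 in batch B and 0.020 without the 2 arrays that stood apart.

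**Figure D3:**
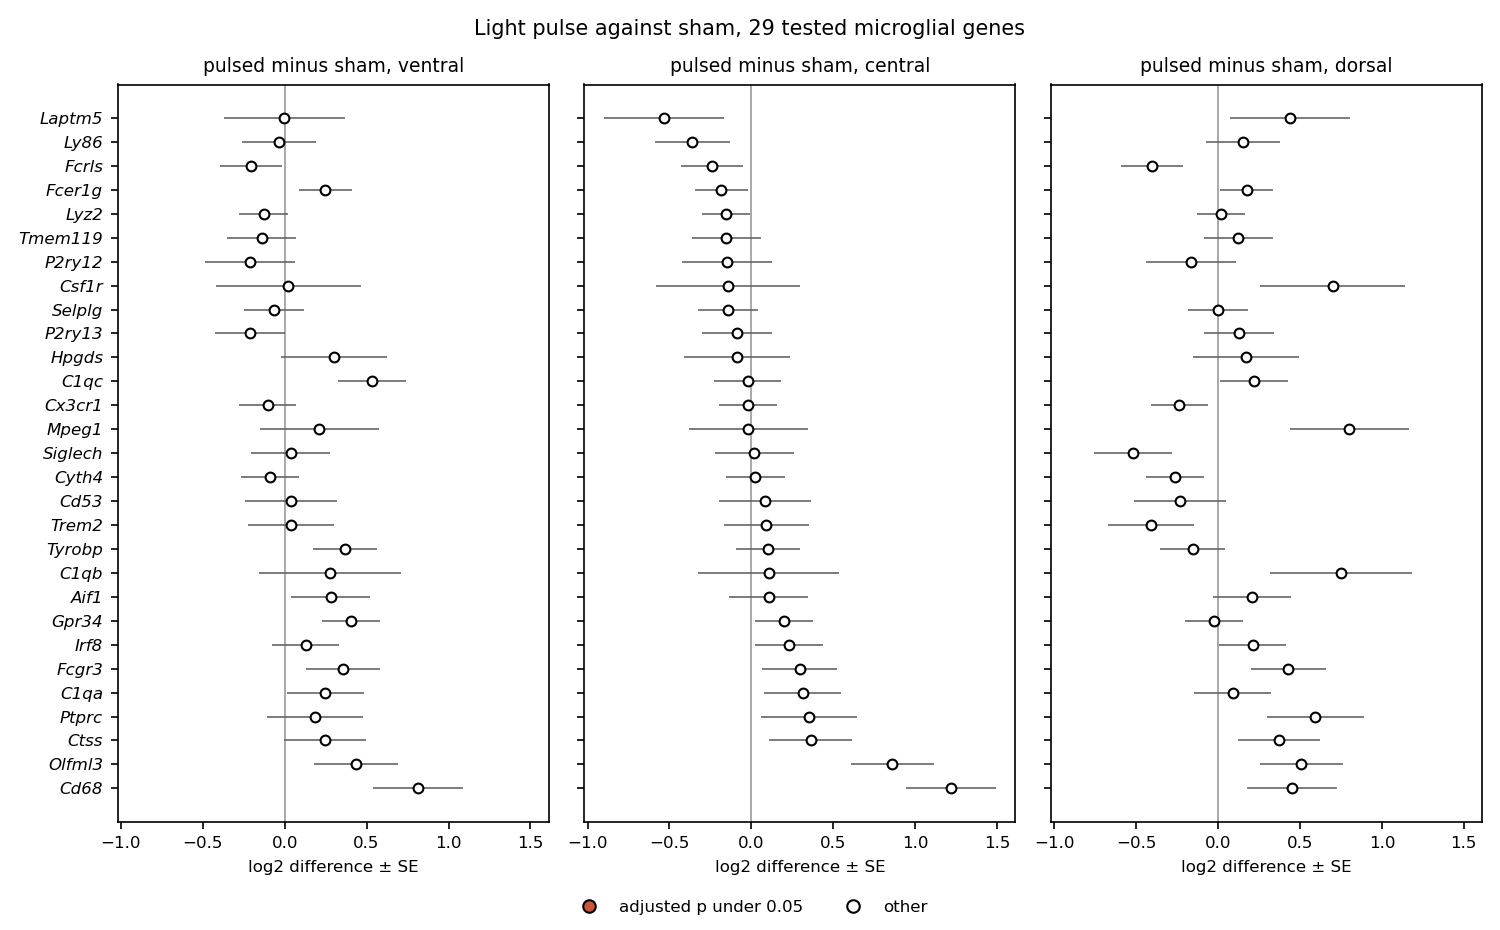
Fitted pulsed minus sham log2 differences (horizontal axes, points, with SE as lines) of the 29 tested genes in ventral, central and dorsal SCN, in rows ordered by the central difference. No point is filled, since none passed an adjusted p of 0.05; Cd68 lies farthest to the right in ventral and central SCN, at 0.81 and 1.22.

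Cd68 came closest. In ventral SCN it had 3.52, 3.71, 5.06 and 5.08 on the pulsed arrays 1 to 4, of which 1 and 2 are batch A, against 2.81, 3.06, 4.14 and 4.11 on the sham arrays. In central SCN it had 3.45, 3.61, 5.98 and 5.75 on the pulsed arrays and 3.07, 3.29, 4.05 and 3.52 on the sham arrays. In both regions every pulsed array lay above every sham array of its batch, with 2 arrays against 2. The share of all tested genes with arrays apart in this way was not counted. The batch A values of Cd68 were all under 4 and exceeded the array's own median on 2 of 12 arrays. In batch B they exceeded it on 5 of 12. Sham central 3 and 4 lay under their array medians of 4.95 and 4.81.

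In dorsal SCN Cd68 had 3.34, 3.50, 5.52 and 4.35 on the pulsed arrays and 3.18, 3.19, 4.62 and 3.93 on the sham arrays, which overlapped in batch B. The fitted differences were 0.81 ± 0.274 in ventral (SE, adjusted p 0.347), 1.22 ± 0.274 in central (0.0526) and 0.45 ± 0.274 in dorsal SCN (0.533), and 0.83 ± 0.198 over the mean of the regions (0.153). The central difference was 0.35 in batch A and 2.08 in batch B. Its central call changed with small choices, since 5 of the 24 fits that left out 1 array passed it: those without pulsed central 1 (adjusted p 0.0277), pulsed central 2 (0.0486), pulsed dorsal 3 (0.0304), pulsed dorsal 4 (0.0180) or sham dorsal 4 (0.0497). So did the fit without both arrays that stood apart (difference 1.35, adjusted p 0.0163), and fits with arrays centred on their medians (0.0375), quantile normalization (0.00724), array weights (0.00795), a stricter filter (0.0462) and the mean of each gene's probe sets (0.0465). With the central arrays alone it did not pass (0.336), nor with no filter (0.0643). In ventral SCN Cd68 passed with quantile normalization (0.0309), array weights (0.0236) and the ventral arrays alone (0.0164).

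Olfml3 was next in central SCN, with 4.22, 5.29, 6.12 and 6.26 on the pulsed arrays 1 to 4, against 3.42, 4.07, 5.31 and 5.64 on the sham arrays. The groups were apart within each batch, and the difference was 0.86 ± 0.255 (SE, adjusted p 0.223). In ventral SCN Olfml3 had 4.30, 4.67, 5.99 and 6.06 on pulsed arrays and 4.32, 3.84, 5.69 and 5.44 on sham arrays, a difference of 0.43, with the groups apart in batch B only. In dorsal SCN it had 4.29, 4.79, 6.06 and 7.12 on pulsed arrays and 4.40, 4.03, 6.31 and 5.49 on sham arrays, a difference of 0.51, with the groups overlapping.

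**Figure D4:**
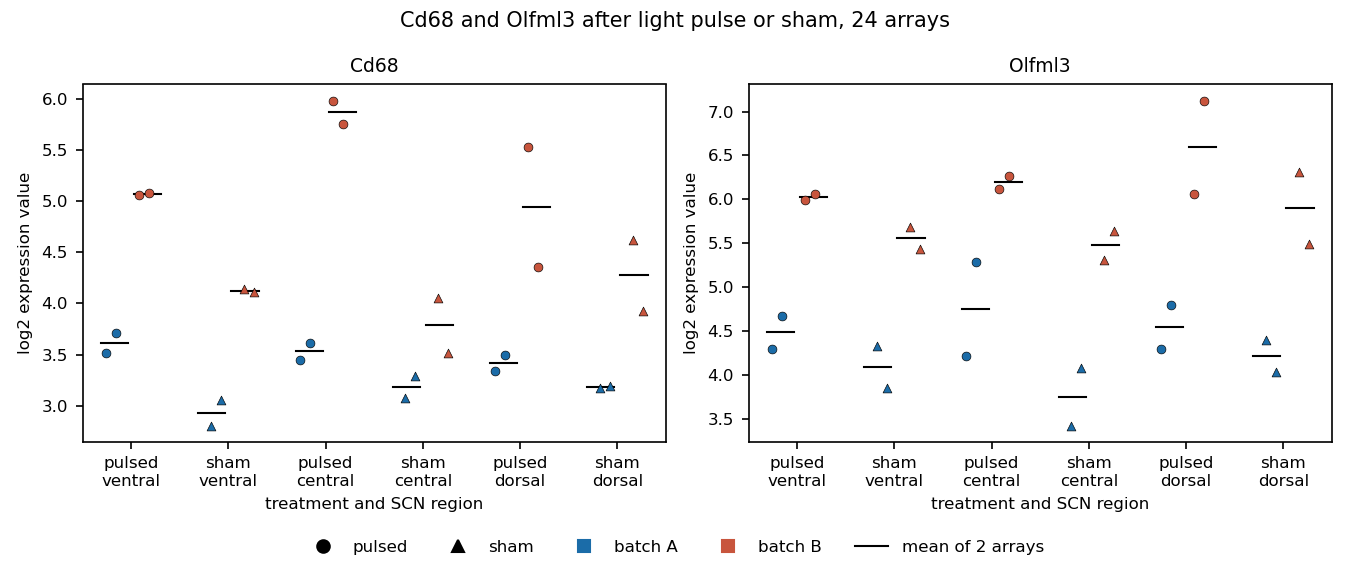
Log2 expression values (vertical axes) of Cd68 and Olfml3 on the 24 arrays by treatment and SCN region (horizontal axes; circles pulsed, triangles sham, blue batch A, red batch B), with lines at the mean of the 2 arrays of a group and batch. Pulsed arrays lie above sham arrays of the same batch in ventral and central SCN for Cd68 and in central SCN for Olfml3.

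Of the remaining genes, C1qc differed by 0.53 in ventral SCN (adjusted p 0.528) and Gpr34 by 0.41 (0.639). In dorsal SCN Mpeg1 differed by 0.80 (0.483), with 7.10 on pulsed dorsal 4 and 4.73 to 5.70 on the other pulsed dorsal arrays, while Siglech differed by -0.52 and Fcrls by -0.40 (both 0.487). The genes that were lower in central SCN did not pass for light in any region: in central SCN the pulsed minus sham difference was -0.53 for Laptm5, -0.36 for Ly86, -0.18 for Fcer1g, -0.14 for Csf1r, -0.02 for C1qc, 0.10 for Tyrobp and 0.36 for Ctss. Gfap, an astrocyte marker, rose with light in ventral SCN by 1.28 ± 0.263 (adjusted p 0.0180) and in dorsal SCN by 1.33 ± 0.263 (0.0319), and its part in the Cd68 values was not tested.

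Whether the light effect differed between regions was tested with an F-test over the pulsed minus sham differences. It was passed by 0 of the 29 genes, where 0.00741% of all tested genes passed. An unadjusted p under 0.05 was reached by 0 of the 29, and the smallest adjusted p was 1.00.

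Other lists of microglial and immune genes, written with earlier results known, were read in the same fits. Over the 84 tested genes of the 7 lists, 8 were lower in central than in dorsal SCN and 8 higher in ventral than in central SCN, where 5.14% and 4.36% of all tested genes were. Of 32 tested further microglial genes, 3 were lower in central than in dorsal SCN. Rgs10, a regulator of G protein signalling, differed by -1.45 ± 0.141 log2 units (SE), Ikzf1, a lymphoid and myeloid transcription factor, by -0.61 ± 0.120, and Ctsh, the lysosomal protease cathepsin H, by -0.69 ± 0.173. Against central SCN, 3 were higher in ventral SCN, Evi2a by 1.52, Sall1, a transcription factor of microglial identity, by 1.01 and Rgs10 by 0.86. The median of the 32 was -0.16 for central minus dorsal and 0.17 for ventral minus central SCN. Between ventral and dorsal SCN 2 were higher, Evi2a by 1.02 and Sall1 by 0.73, and 2 were lower, Rgs10 at -0.59 among them. In that comparison oligodendrocyte markers were higher in ventral SCN for 4 of 5 tested (median 1.00) and neuron markers lower for 2 of 6. Which cells the transcripts of these further genes came from was not tested.

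Of 15 tested genes known from disease-associated microglia, Ctsz, the protease cathepsin Z, was lower in central than in dorsal SCN (difference -1.22 ± 0.202). Ctsz, the tetraspanin gene Cd9 and Axl, a receptor for dying cells, were higher in ventral than in central SCN, by 1.04, 1.10 and 0.69. Of 10 inflammatory genes, the cytokine gene Il18 was lower in central than in dorsal SCN (-1.18 ± 0.280) and higher in ventral than in central SCN by 1.03, and Tnfaip3, an inhibitor of NF-kappaB signalling, was lower in ventral than in central SCN (-1.23). Of 8 complement genes beyond C1Q, C3ar1, the C3a receptor, was higher in ventral than in dorsal SCN by 0.75, and Cd93 was higher in ventral than in central SCN by 0.75.

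Among 11 ligands and partners of microglial receptors, most of them made by other cells, Cd47, the signal that restrains phagocytosis, was higher in central than in dorsal SCN by 0.62 and in ventral than in dorsal SCN by 0.74. Nt5e, which makes adenosine, was lower in central (-0.91) and in ventral SCN (-0.93) than in dorsal SCN, and Clu, an extracellular chaperone, was lower in central than in dorsal SCN (-0.60). In all, 3 of the 11 were lower in central than in dorsal SCN. Of 3 tested genes of border-associated macrophages and 8 of antigen presentation, 0 passed between regions. Over the 84 tested genes of the 7 lists, 0 passed for light in any region or in the mean of the regions by limma. At an unadjusted p under 0.05, 6 were higher and 0 lower in ventral SCN, 2 and 0 in central SCN, 0 and 2 in dorsal SCN, and 4 and 2 in the mean of the regions.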

How the data were processed

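The deposited table holds log2 expression values of 45101 probe sets on 24 Affymetrix arrays, made by the authors. Per the submitters' processing notes, the tools were MAS5, R 3.0.2 and GCRMA 2.32.0, with no role stated for any of them, and the normalization between batches was not given in the sources used here. Symbols came from the platform annotation: 34945 probe sets had 1 symbol and 932 had several and were not named. The microglial genes and the other lists were chosen with earlier results of these data known. From the other lists, up to 3 genes with the smallest p that passed were named in each comparison.

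Tests were two-sided fits with lmFit and eBayes of limma 3.58.1, under R 4.3.3, on 13494 genes over log2 4 on at least 4 arrays, with 6 group means and batch as terms (17 residual degrees of freedom). For the mean of the regions, 8 values, each a mean over 3 regions for 1 treatment and replicate number, were fitted. Adjusted p values are Benjamini-Hochberg over all tested genes, and the threshold was 0.05. The scripts were tested on simulated data. The number of arrays limits the precision.

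Replicate numbers were checked for pairing by correlating deviations from the group means. Between regions of 1 treatment all 12 correlations exceeded 0.1 (0.185 to 0.623), so the numbers, which come from the labels, were taken to pair those arrays. Between pulsed and sham arrays of 1 region 5 of 6 did (lowest 0.096), so light comparisons were not paired, although arrays differing in both treatment and region exceeded 0.1 in 12 of 12 (0.101 to 0.422). Arrays of different treatments cannot share an animal, so exceeding 0.1 does not show that arrays share one. The median correlation was 0.405 between regions of 1 treatment and 0.242 where both differed. The reported comparisons of regions did not use the pairing, which entered only as the block in an alternative fit. Alternatives were no batch term, each batch, blocks, array centring, quantile normalization, other filters, the mean of a gene's probe sets, array weights, subsets of arrays and leaving out each array.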

Additional observations from a re-analysis of the deposited data

Results flagged for a closer look

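In groups of 4 arrays with the batch difference removed, 10 of 180 (29 genes and their mean, each in 6 groups) had an array set far from the other 3. Far was judged by the gap relative to the range of the 4 values, whatever its size in log2 units. Chance gives about 1 in 20 groups, so the count of 10 lay near the chance rate. For C1qb the array set apart was sham ventral 1 at 9.884 log2 units, with 9.344 on the other array of its group and batch. For Csf1r it was sham central 1 at 8.504 (the other array had 7.949), and for P2ry13 sham dorsal 3 at 5.620 (4.955). For Cd68 pulsed ventral 1 lay low at 3.516 (3.708) and sham dorsal 4 at 3.929 (4.621). For Laptm5 it was sham ventral 1 at 7.893 (6.854), and for Selplg sham ventral 2 at 3.077 (3.219). For Mpeg1 pulsed central 3 lay low at 3.998 (4.976) and sham dorsal 1 high at 4.763 (4.500). For Lyz2 it was pulsed ventral 2 at 3.678 (3.389).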

How the results depend on the processing

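For central minus dorsal SCN, where 7 of the microglial genes were called, 0 were called with no batch term, 0 in batch A alone and 0 in batch B alone, 1 with sham arrays only, 3 with pulsed arrays only, 12 with the replicate block within treatment and 13 with array weights, the last 2 with all 7 among them. Other fits gave 6 to 9, and leaving out 1 array gave 5 to 10. For ventral minus central SCN, where 3 were called, the counts were 0 with no batch term, 0 in batch A, 0 in batch B, 0 with sham arrays only, 5 without the 2 arrays that stood apart, 6 with the replicate block within treatment and 8 with array weights, and 2 to 6 when 1 array was left out. The plain replicate block gave 7 and 3. For light in ventral SCN 1 gene was called after quantile normalization and 1 with that region's arrays only (Cd68), and 2 with array weights (Cd68, adjusted p 0.0236, and C1qc, 0.0369). For light in central SCN 1 gene, Cd68, was called with the replicate block (adjusted p 0.0254), with arrays centred on their medians, after quantile normalization, with the stricter filter, with the mean of all probe sets, with array weights and without the 2 arrays that stood apart, and 0 or 1 when 1 array was left out; in batch B the median over the 29 genes was 0.30 in place of 0.02. For light in dorsal SCN that median was -0.0093 with array weights. For the mean of the regions 1 gene was called after quantile normalization and 1 with array weights, and 2 as a contrast in the fit of all arrays (Cd68, 0.00301, and Olfml3, 0.0211). The replicate block changed no other call, and the cause of these changes was not tested. No called difference turned its sign. Counts over all genes ranged from 0 to 576 for light in ventral, 0 to 204 in central and 0 to 353 in dorsal SCN, 0 to 549 for the mean of the regions, 4 to 1374 for ventral minus dorsal, 7 to 1762 for central minus dorsal and 9 to 1390 for ventral minus central SCN. Against these, 97, 52, 24, 55, 622, 959 and 702 were called in the reported fits. With the filter on each array's own median, an alternative chosen after seeing the data like the replicate block within treatment, 22 of the 34 genes were tested.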
